A study of Danio rerio with 9 samples.

Results

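The gene prickle1b was followed across rhombomeres of the zebrafish hindbrain. All probes that the platform annotation ties to prickle1b were taken, after symbols were updated through Entrez gene IDs. There was 1 such probe, probe 13112, among 16227 probes tested for 5355 named genes, so every value of prickle1b rests on this 1 probe. Hindbrain tissue was dissected at 19 to 20 hours post fertilization from embryos of an islet1-GFP transgenic strain, in which cranial motor neurons carry GFP. Each of the 9 arrays held RNA of a thick section around 1 rhombomere, taken from 8 to 10 embryos, and the labels describe no sorting of cells. There were 3 groups of 3 arrays: normal r4, which is rhombomere 4 of untreated embryos, Hoxb1a-deficient r4, which is the same region after injection of a morpholino against Hoxb1a, and normal r2, which is rhombomere 2 of untreated embryos. The arrays came from 3 experiments, of which the first held no r2 sample and the third held 2 (3a and 3b). The untreated embryos are not described as control-injected, and the sources used here do not say which kind of morpholino was used.

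Prickle proteins carry PET and LIM domains and act in the cytoplasm as part of the planar cell polarity pathway, beside the membrane protein Vangl and opposite Frizzled and Dishevelled. In the zebrafish hindbrain this pathway is known for its part in the migration of facial branchiomotor neurons, which are born in r4 and move toward more posterior rhombomeres. Hoxb1 transcription factors, acting with Pbx and Meis cofactors, give r4 its identity, and without Hoxb1a these neurons stay in r4. The study was made to find genes downstream of Hoxb1a, and prickle1b is known from it as one of them. Its values are therefore a description of the arrays on which it was found, and none of the tests below is independent of that choice.

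Values are linear spot intensities whose median is about 1 on each array, so that a value reads as a multiple of the median probe. Background was not measured separately, and values near or under 1 may hold little signal. On this scale the normal r4 arrays of experiments 1, 2 and 3 gave prickle1b levels of 21.3, 13.7 and 21.1. In Hoxb1a-deficient r4 it read 9.61, 8.72 and 9.3. In normal r2 it read 6.24 in experiment 2 and 10.1 and 6.72 in samples 3a and 3b of experiment 3. All normal r4 arrays were above all others, and the lowest of them was 1.36 times the highest other array, r2 sample 3a. Arrays separated in this way, with all of normal r4 higher, for 1.47% of probes against Hoxb1a-deficient r4 and for 5.05% against normal r2. Hoxb1a-deficient r4 and normal r2 overlapped, since 3a was above the 3 Hoxb1a-deficient arrays and the other 2 r2 samples were below them.

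**Figure D1:**
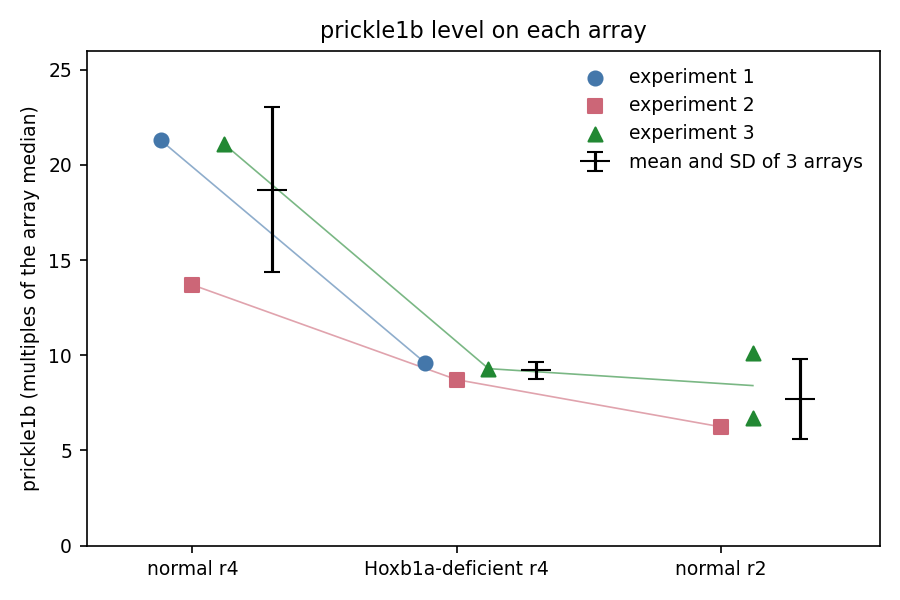
Level of prickle1b (vertical axis, multiples of the array median) on each of the 9 arrays by group. Points are arrays, with shape and colour for the experiment, thin lines join the arrays of an experiment (through the mean of 3a and 3b), and black marks give the mean and SD of 3 arrays. The normal r4 arrays sit between 13.7 and 21.3 and the other 6 between 6.24 and 10.1.

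Normal r4 averaged 18.7 ± 4.34, Hoxb1a-deficient r4 averaged 9.21 ± 0.45 and normal r2 averaged 7.68 ± 2.1 (SD, n = 3 each). The probe was well within the bright part of the array in every group: 87.6% to 91.8% of probes were dimmer in normal r4, 80.6% to 86.2% in Hoxb1a-deficient r4 and 80.8% to 83.9% in normal r2. It was far from saturation, since the highest value on an array was 107 to 190. The SD of its log2 level was 0.07 over the Hoxb1a-deficient arrays, against 0.36 over normal r4 and 0.37 over r2. Among the 1087 probes whose mean log2 level lay within 0.5 of that of prickle1b, 1.47% varied less over the Hoxb1a-deficient arrays, 24.7% varied less over the normal r4 arrays and 62% varied less over the r2 arrays.

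Hoxb1a-deficient r4 was set against normal r4 to ask whether prickle1b transcript depends on Hoxb1a. The log2 fold change was -0.99 with an SE of 0.26 over 3 arrays a group, which is a ratio of 0.502, and its 95% confidence interval was -1.57 to -0.42. The log2 differences within experiments 1, 2 and 3 were -1.15, -0.65 and -1.18, so that prickle1b was lower in 3 of 3 experiments. Neither fit carried this past the test: limma's adjusted p over all probes was 1, and 0.274 with the experiment as a replicate block (SE 0.17). Limma called 0 probes lower in this comparison, which is 0% of those tested, and 2 with the block, which is 0.0123%, so that few or no probes passed here. By the size of its negative log2 fold change prickle1b ranked 23 of 16227 probes, and by limma's p among lower probes it ranked 5, or 11 with the block. Over 33 other settings the adjusted p ran from 0.0642, with the experiment as a random block, to 1. An exact two-sided permutation test over the 6 arrays gave p = 0.1, the smallest it can give with 3 arrays against 3.

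In bulk sections fewer cells of a type and less RNA per cell cannot be told apart, here as in what follows. The hoxb1a probe itself read 3.02, 2.42 and 1.88 in normal r4 and 3.17, 1.52 and 1.51 in Hoxb1a-deficient r4, with overlap between the groups. Because a morpholino can act on translation alone, this probe does not check the knockdown.

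Normal r2, a further source of tissue without Hoxb1a in the design, was set against normal r4. There hoxb1a read 0.774, 0.59 and 0.567, below the array median on all r2 arrays. For prickle1b the r2 value lay -1.29 ± 0.26 log2 units from normal r4 (SE over 3 arrays a group), a ratio of 0.409, and the 95% confidence interval ran from -1.87 to -0.71. The log2 difference was -1.13 in experiment 2, and -1.07 for 3a and -1.65 for 3b in experiment 3, all 3 samples being lower than normal r4 of their own experiment. Without a block limma's adjusted p was 0.0741, which misses the threshold of 0.05. With the experiment as a replicate block the log2 fold change was -1.28 ± 0.19 and prickle1b fell past the test (adjusted p = 0.0107). Limma called 0.444% of probes lower in this comparison and 0.579% in either direction, and with the block 0.937% lower, 0.764% higher and 1.7% in either direction.

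The blocked call in r2 was not carried by every array. It was lost without normal r4 replicate 3 (limma adjusted p = 0.127), without either array of experiment 1 (0.0699 each) and with log2(value + 1) in place of log2(value) (0.0719). Leaving out any other single array kept it in the blocked fit, with adjusted p from 0.00638 to 0.0318. The log2 fold change in these blocked fits stayed between -1.43 and -1.14. The exact permutation test over the 6 arrays again gave its smallest p of 0.1.

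Hoxb1a-deficient r4 and normal r2 were also compared directly. The prickle1b level was 0.29 ± 0.26 higher in Hoxb1a-deficient r4 on the log2 scale (SE, n = 3 per group, limma adjusted p = 0.996). The 95% confidence interval of this difference was -0.28 to 0.87, so these arrays do not show that the levels are equal. Limma called 0.382% of probes higher in this comparison. With the block the difference was 0.29 ± 0.19 (adjusted p = 0.523), and an exact permutation test gave p = 0.4. In order of level, normal r4 was highest, and the Hoxb1a-deficient r4 and r2 arrays did not differ beyond their spread.

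The arrays of experiment 1 were brighter in their upper part, with an upper quartile of 6.86 and 6.15 against 3.64 to 4.75 on the others. Expressed as a multiple of each array's upper quartile, prickle1b measured 3.1, 3.75 and 5.04 in normal r4. It measured 1.56, 2.16 and 2.53 in Hoxb1a-deficient r4, and 1.71, 2.12 and 1.56 in normal r2. The normal r4 arrays again lay above all others on this scale. With the upper quartiles set equal, the log2 fold changes were -0.94 in Hoxb1a-deficient r4 and -1.11 in r2. Their SE of 0.32 was larger than the 0.26 of the main fit, and neither passed limma's test (adjusted p = 0.489 in r2).

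The rank of prickle1b was then taken among all probes for being lower in both tissues. A probe was scored by the smaller of its 2 decreases against normal r4, the one in Hoxb1a-deficient tissue or the one in r2. Both comparisons share the normal r4 arrays, so a high value on those arrays moves a probe in both at once. With a score of -0.99, prickle1b ranked 9 of 16227 probes, which is 0.0555%, and 2 among the 5907 probes with 1 gene symbol, after cmtm7. The rank became 28 when Hoxb1a-deficient r4 replicate 1 was left out, 27 for normal r4 replicate 3 and 17 for normal r4 replicate 2. For any other array left out it was 7 to 12. Just outside prickle1b came the radial glia gene fabp7a (-0.98) and dab2 (-0.96), and just inside it probe 4992 (-1.01).

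Some probes near prickle1b in this order owed their place to 1 array. The cmtm7 probe read 49.5 on normal r4 replicate 2 and 1.01 to 1.74 on every other array. Probe 568 read 9.93 on normal r4 replicate 3 and below 1 elsewhere, and probe 2896, ranked 12, read 8.47 there and below 1 elsewhere. Probe 4992 was as bright in Hoxb1a-deficient r4 as in normal r4 of experiment 1 (12.3 and 12). Of the 12 probes ranked 1 to 12, the normal r4 arrays were above all other arrays for probes 4651, 1728, 6842 and prickle1b. Over all probes this held for 53, or 0.327%, and the gap between the lowest normal r4 array and the highest other one was larger for 1 probe than for prickle1b.

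**Figure D2:**
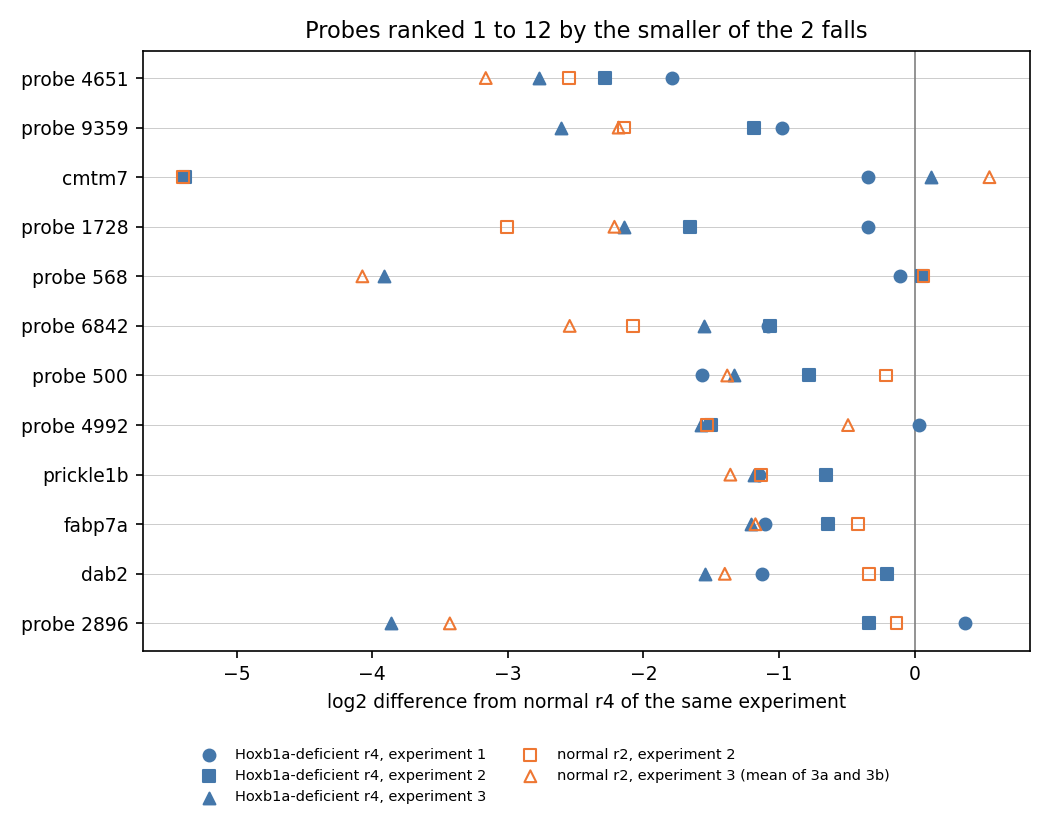
Log2 difference from normal r4 of the same experiment (horizontal axis) for the 12 probes with the largest smaller decrease, ranked from top to bottom. Filled points are Hoxb1a-deficient r4 in experiments 1 to 3, open points normal r2 in experiments 2 and 3. For prickle1b the points lie between -1.36 and -0.65, whereas cmtm7 and probes 568 and 2896 reach their ranks through a single normal r4 array.

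A second rank asked for a decrease in every experiment. The 3 differences of Hoxb1a-deficient r4 and the 2 of r2 (3a and 3b averaged) were taken within experiments, and a probe was scored by the smallest. The score of prickle1b was -0.65, set by Hoxb1a-deficient r4 in experiment 2, and it ranked 4 of 16227 probes. Thus 0.0247% of probes were lower by at least as much in every difference: probes 4651, 6842 and 9359, all without a gene symbol here, and prickle1b. Among probes with 1 symbol prickle1b ranked 1. The next were probe 17771 (-0.64), the kinesin gene kifc3 (-0.52) and the glutamate transporter gene slc1a2b (-0.51). For kifc3 the level in normal r4 was 13.3, 5.77 and 4.31, against 8.39, 4.04 and 2.34 in Hoxb1a-deficient r4 and 1.74, 1.29 and 1.25 in r2, so its normal r4 and Hoxb1a-deficient arrays overlapped.

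Probe 4651 led both ranks. It read 16.7, 15.2 and 17.3 in normal r4, 4.82, 3.13 and 2.53 in Hoxb1a-deficient r4 and 2.6, 2.09 and 1.78 in r2. Its normal r4 arrays were above all others, and its decreases were larger than those of prickle1b in all 5 differences, from -1.79 to -3.16. Unlike prickle1b, it passed limma's test between Hoxb1a-deficient and normal r4 with the block (adjusted p = 0.0102, and 0.0818 without it). In r2 against r4 it passed in both fits (0.000978, and 0.000206 with the block). Whether prickle1b and probe 4651 differ was not tested.

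The planar polarity pathway around prickle1b was then examined, from lists of its core proteins, Wnt ligands and co-receptors, effectors and other genes tied to facial motor neuron migration. Of these, 37 genes had a probe, prickle1b the only one of its family. Between Hoxb1a-deficient and normal r4 limma called 0 of the 37 lower and 0 higher, with or without the block. Among the 36 without prickle1b the median log2 fold change was -0.06, against -0.01 over all probes, with 1 lower and 1 higher at an unadjusted p under 0.05 (0.505% of all probes passed that in either direction). Between r2 and r4 the median of the 36 was 0.05, against 0.08 over all probes, with 0 lower and 3 higher at an unadjusted p under 0.05, which 4.11% of all probes passed, and 1 lower and 8 higher with the block, where 11% passed. Between Hoxb1a-deficient r4 and r2 it was -0.08, with 3 lower and 0 higher, where 4.74% passed, and 9 lower with the block, where 15.2% passed.

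Among the core genes 8 had a probe, and 7 of them were above the array median throughout at least 1 group. The membrane protein gene vangl2, whose product binds Prickle, read 1.64, 1.19 and 1.34 in normal r4 and 1.54, 1.15 and 1.29 in Hoxb1a-deficient r4. These values lie near the array median and nearly coincide within each experiment, with log2 differences of -0.09, -0.05 and -0.05. In r2 vangl2 read 1.51, 2.53 and 2.21, a log2 fold change of 0.56 that did not pass limma's test (adjusted p = 0.959, and 0.0909 with the block). The Frizzled gene fzd3a, whose product is needed for this migration in zebrafish, averaged 23.8 over the normal r4 arrays, 21.6 over the Hoxb1a-deficient arrays and 26.6 over the r2 arrays. The normal r4 mean includes 35.3 from experiment 1, which held no r2 sample. Within experiments 2 and 3 the r2 value lay 0.57 and 0.50 log2 units above normal r4 (blocked fit 0.60, limma adjusted p = 0.18). The Hoxb1a-deficient differences within experiments 1, 2 and 3 were -0.04, 0.13 and -0.63.

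Between Hoxb1a-deficient and normal r4 the other core genes also had small mean differences, but some of them varied between experiments. Within experiments 1, 2 and 3 the log2 differences were -0.17, 0.69 and -0.36 for dvl3a and -0.64, 0.04 and -0.27 for celsr1a. The log2 fold changes between Hoxb1a-deficient and normal r4 were -0.29 for the seven-pass cadherin gene celsr1a, -0.04 and -0.13 for the Frizzled genes fzd7a and fzd7b, -0.01 and 0.05 for the Dishevelled genes dvl2 and dvl3a, and 0.07 for ankrd6b, a relative of fly Diego. The ankrd6b probe was below the array median on all arrays. In the 8 core genes these log2 fold changes thus ran from -0.29 to 0.07, against -0.99 for prickle1b. Limma called 0 of the 8 in any comparison, where it called at most 0.579% of all probes, or 2.21% with the block. In this comparison 0 reached an unadjusted p under 0.05 without or with the block. Of all probes 0.505% and 5.74% did, so 0 of 8 is near that share. In normal r4 vangl2, dvl2 and ankrd6b averaged 1.39, 1.13 and 0.718, against 18.7 for prickle1b, so these probes may hold little signal. The other core genes averaged 1.95 (fzd7b) to 40.9 (fzd7a). Whether prickle1b differed from the 8 core genes was not tested.

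Among Wnt ligands and co-receptors 7 had a probe and limma called 0 in any comparison, with or without the block. In Hoxb1a-deficient against normal r4 0 reached an unadjusted p under 0.05, and 1, the ligand gene wnt11, did with the block, where 5.74% of all probes did. The wnt11 probe read 7.96, 1.27 and 1.78 in normal r4 and 5.13, 1.41 and 1.12 in Hoxb1a-deficient r4, so it differed more between experiments than between groups. The glypican gene gpc4, a Wnt co-receptor, had a log2 fold change of 0.12, and ryk, a Wnt receptor, one of -0.17. The ligand genes wnt4b and wnt5b were below the median on all arrays.

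Of 9 effectors with a probe limma called 0 in any comparison, where it called at most 0.579% of all probes, or 2.21% with the block. Between Hoxb1a-deficient and normal r4 0 reached an unadjusted p under 0.05 without or with the block. Of all probes 0.505% and 5.74% did, so 0 of 9 is near that share. The formin gene daam1b had a log2 fold change of -0.14, and the value farthest from 0 was -0.39, for magi1b.

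**Figure D3:**
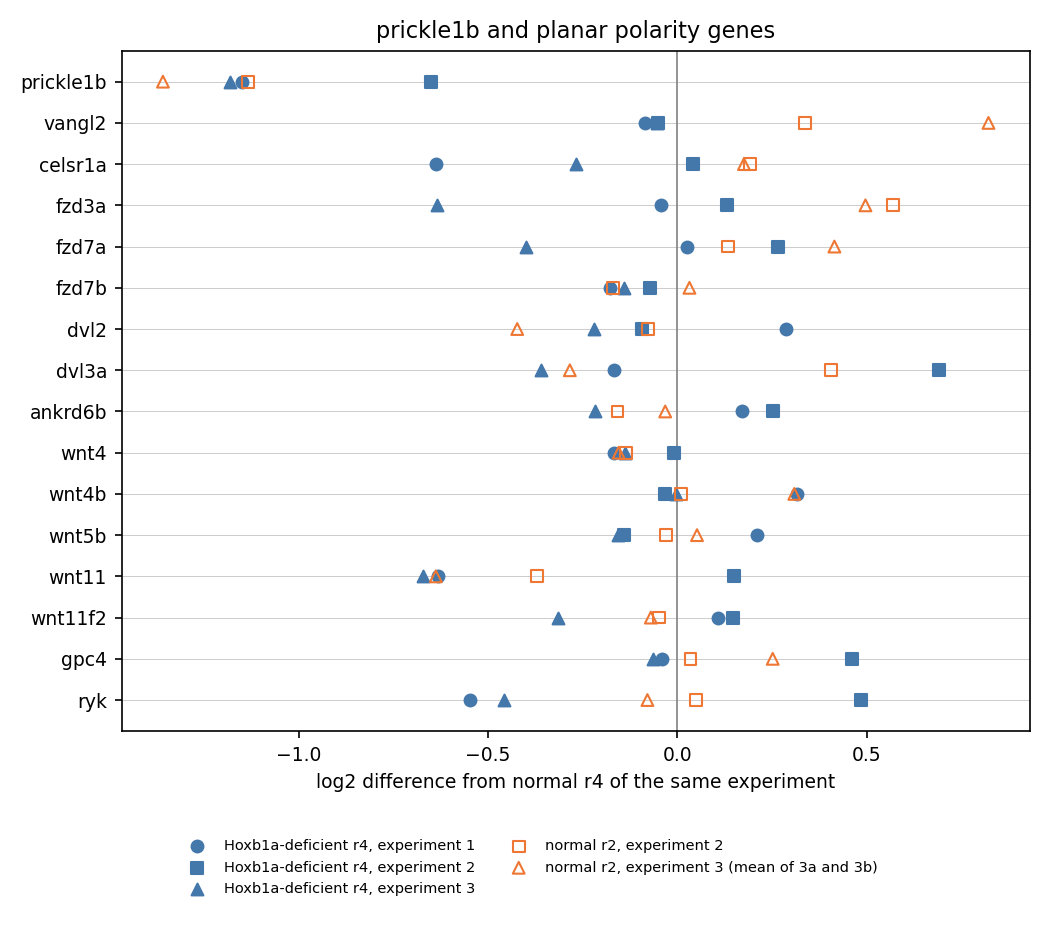
Log2 difference from normal r4 of the same experiment (horizontal axis) for prickle1b and the measured core planar polarity genes, Wnt ligands and co-receptors. Filled points are Hoxb1a-deficient r4 in experiments 1 to 3, open points normal r2 in experiments 2 and 3. All points of prickle1b lie at or below -0.65, and each other gene has points nearer to 0 than that.

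Among other genes tied to facial motor neuron migration, 12 had a probe and 2 passed a test in some comparison. The chemokine gene cxcl12b read 2.11, 2.87 and 2.07 in normal r4, 6.1, 6.79 and 4.34 in Hoxb1a-deficient r4 and 4.92, 6.74 and 6.79 in r2. Normal r4 was thus the lowest group for cxcl12b and the highest for prickle1b. It rose in r2 against r4 by 1.39 (adjusted p = 0.0438), where limma called 0.136% of probes higher, and did not pass in Hoxb1a-deficient r4 (1.28, adjusted p = 0.231 with the block). The r2 call of cxcl12b was lost with quantile normalization, under which 0 of the 37 genes were called in r2 against r4, although the highest log2 fold change of the list was then 1.49 against 1.39.

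The growth factor gene vegfab read 3.39, 2.32 and 4.24 in normal r4, 2, 1.77 and 1.89 in Hoxb1a-deficient r4 and 4.56, 10.3 and 9.18 in r2. It was the 1 gene of the 37 that differed past limma's test between Hoxb1a-deficient r4 and r2 (log2 fold change -2.00, adjusted p = 0.0259), where 0.173% of probes were called lower. Against normal r4 it rose in r2 only with the block (1.15, adjusted p = 0.0233). In Hoxb1a-deficient r4 against normal r4 vegfab had a log2 fold change of -0.77 (limma adjusted p = 0.602 with the block). Within experiments 1, 2 and 3 its differences were -0.76, -0.39 and -1.17. The cadherin gene cdh2, the chemokine receptor gene cxcr4b and the adhesion gene cntn2 had log2 fold changes of -0.50, -0.32 and -0.30 there, and cdh4 one of 0.26. None of these passed the test. In experiment 2 cdh2 and cntn2 were higher, by 0.21 and 0.22, and cntn2 lay near the array median.

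Markers of cranial motor neurons were set beside prickle1b, since these neurons are known to hold its transcript. Of 14 with a probe, limma called 0 between Hoxb1a-deficient and normal r4, with 0 at an unadjusted p under 0.05 and 1 lower with the block, near the 5.74% of all probes that passed there. The transcription factor gene isl1a, which marks motor and sensory neurons, read 8.73, 5.65 and 5.47 in normal r4, 12.1, 7.9 and 4.2 in Hoxb1a-deficient r4 and 6.74, 7.2 and 7.33 in r2. Its groups overlapped throughout. The vesicular acetylcholine transporter gene slc18a3a read 3.34, 3.1 and 4.43 in normal r4 and 2.51, 2.84 and 2.58 in Hoxb1a-deficient r4, lower in 3 of 3 experiments (log2 fold change -0.44, limma adjusted p = 1, and 0.853 with the block). This was less than the -0.99 of prickle1b, and that difference was not tested. In r2 slc18a3a fell to 0.944, 0.712 and 0.696.

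The summed level of the 14 motor neuron markers was 31.7 to 60.2 in normal r4, 29.2 to 60.3 in Hoxb1a-deficient r4 and 26.6 to 31.5 in r2. The largest part in normal r4 was nkx6.2 (17.3, 8.63 and 13.4), against 3.34, 3.1 and 4.43 for slc18a3a. The sum thus follows the brighter genes and is no measure of the number of motor neurons. The facial motor neuron gene tbx20 was below the array median on all arrays, as were lhx3, olig2 and ache. Of the 14 markers 8 were above the array median throughout at least 1 group. The list median thus rests partly on probes that may hold little signal. The median log2 fold change of the list was -0.02 in Hoxb1a-deficient r4. In r2 against r4 that median was -0.28, and -0.05 with the block. Experiment 1 held no r2 sample, and its part in this shift was not tested. In that comparison 2 of the 14 fell (slc18a3a and gata3), where 0.444% of all probes did. The share of these neurons in the prickle1b difference was not tested.

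**Figure D4:**
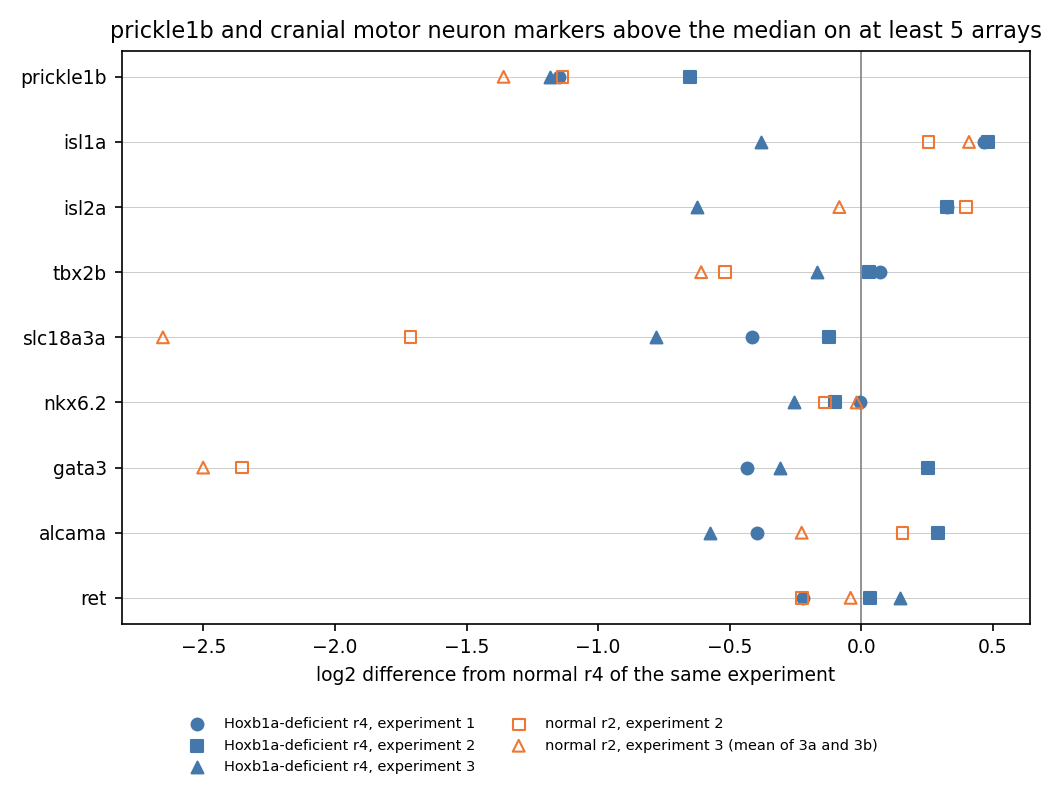
Log2 difference from normal r4 of the same experiment (horizontal axis) for prickle1b and the 8 cranial motor neuron markers above the array median on at least 5 arrays. Filled points are Hoxb1a-deficient r4 in experiments 1 to 3, open points normal r2 in experiments 2 and 3. The points of slc18a3a are all below 0, those of r2 farthest, and those of isl1a lie on both sides of 0.

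Other cell types moved with the r2 comparison. Of 115 genes in 11 lists of markers of other tissues and of p53 response, 10 fell and 3 rose in r2 against r4, against 0.444% and 0.136% of all probes, and some genes stand in more than 1 list. Of 15 otic vesicle markers 6 fell, with a summed level of 63.4 to 199 in normal r4 and 23.6 to 39.2 in r2. Of 4 markers of cranial sensory ganglia 3 fell (54.7 to 120 and 10.9 to 11.9), and of 12 skin markers 3 fell (67.8 to 159 and 30.1 to 59.8). Some of these were the same probes, since six4b and eya1 were counted as otic and ganglion markers and epcam as an otic and skin marker. The ganglion marker neurog1 and the keratin genes krt4, krt5 and krt8 did not pass. Of 11 midbrain and isthmus markers 2 rose. Their part in the prickle1b level of r2 was not tested.

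Between Hoxb1a-deficient and normal r4 limma called 0 of these 115 genes, with or without the block, and 4 were lower and 0 higher at an unadjusted p under 0.05. Over all probes 0.505% passed that in either direction. In the blocked fit 12 were lower and 3 higher, where 5.74% of all probes passed. The summed level of the 11 blood and endothelium markers was 8.23 to 10.4 against 10.8 to 14 in normal r4, through dab2 alone, since the sums without it were 6.07 to 7.53 and 5.94 to 7.45. The otic sums were 68.9 to 152 against 63.4 to 199. Within experiments 1, 2 and 3 the summed neuron markers went from 227 to 226, 211 to 188 and 153 to 144 between normal and Hoxb1a-deficient r4. The summed markers of progenitors and radial glia went from 601 to 582, 607 to 567 and 518 to 474. Both sums were thus lower in 3 of 3 experiments, as prickle1b was. Much of each sum came from probes at or near the highest value of their array, so the sums say little about dimmer markers. In normal r4 the neuron marker tubb5 read 125, 167 and 112 and the progenitor marker sox3 128, 136 and 112. The highest values on these arrays were 128, 186 and 112. The 9 neuron markers had a median log2 fold change of -0.31, and 4 of them were lower at an unadjusted p under 0.05 in the blocked fit. Of the 15 progenitor and radial glia markers 4 were lower there, with a list median of -0.01. They were the radial glia genes gfap (-0.79), fabp7a (-0.98) and slc1a2b (-0.88) and the receptor gene notch1a (-0.38). Each was lower in 3 of 3 experiments, but the blocked fit that picked them favours such agreement, so it adds no support. The share of all probes lower in 3 of 3 experiments was not counted. The part of these cells in the prickle1b difference was not tested. For 7 genes of the p53 response, which some morpholinos induce, the median was 0.12, and 2 were higher at an unadjusted p under 0.05 in the blocked fit. One of them, mdm2, a target of p53, was higher in 3 of 3 experiments, by 0.61, 0.41 and 0.31 on the log2 scale. It too was picked by the blocked fit, which favours such agreement. The log2 fold changes of the 7 ran from -0.19 to 0.44. For 1 of the 7 all Hoxb1a-deficient arrays were below all normal r4 arrays, as for 1.47% of all probes, and for 0 they were all above.

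A list of genes reported in r4, in rhombomeres near it or downstream of Hoxb1 was compared with prickle1b. Of 15 with a probe, prickle1b included, 6 fell and 1 rose in r2 against r4, where 0.444% of all probes fell and 0.136% rose. Between Hoxb1a-deficient and normal r4 limma called 0 of them, with or without the block, and prickle1b and lrrn1 were the 2 lower at an unadjusted p under 0.05, which 0.505% of all probes passed. The 6 were hoxb1a, hoxa3a, hoxb3a, gata3, egr2b and sfrp2, and the 1 that rose was fgf8a. Of these, egr2b (a gene of r3 and r5), hoxa3a and hoxb3a are known mainly from other rhombomeres than r4. The gene fgf8a also stood among the midbrain and isthmus markers, and gata3 among the cranial motor neuron markers, so the same probes were counted in both lists. For gata3 the level was 10.1, 4.45 and 4.19 in normal r4, 7.51, 5.3 and 3.38 in Hoxb1a-deficient r4 and 0.87, 0.766 and 0.716 in r2, so that r2 alone was low among the 3 groups. The Hox gene hoxa2b was lower in all 5 differences within experiments, with -0.19, -0.58 and -0.94 in Hoxb1a-deficient r4 and -0.64 and -0.91 in r2, and passed neither fit. The leucine-rich repeat gene lrrn1 averaged 25.4 over the Hoxb1a-deficient arrays, 46 over normal r4 and 49.2 over r2. Of 13 measured Hox cofactor genes 9 were above the array median throughout at least 1 group. Limma called 0 of the 13 in any comparison, and their median log2 fold change was -0.13 in Hoxb1a-deficient r4 against normal r4. There 0 reached an unadjusted p under 0.05, and 1 was lower with the block, where 0.505% and 5.74% of all probes passed.

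The genes whose pattern was most like that of prickle1b were sought by Pearson correlation of log2 levels over the 9 arrays, among 3407 probes with 1 symbol and a mean above the array median in normal r4. Correlations are descriptions, since arrays share experiments and groups. The highest was with nr3c1, the glucocorticoid receptor gene (r = 0.95, Spearman correlation 0.95), followed by the Polycomb partner gene rybpa (0.90), the retinoic acid receptor gene raraa (0.87) and the neurofilament gene nefma (0.87). The other 6 of the top 10 were top1b, srpra, capns1b, gpm6aa, si:busm1-180g5.6 and ino80db, with r from 0.85 to 0.87. The 95th percentile over these 3407 probes was 0.64, and hoxb1a had r = 0.65. The filter runs through normal r4, where prickle1b is high. With a filter on the mean over all 9 arrays (3400 probes), or with none (5906 probes), the top 10 held the same 10 genes, and among the 2851 probes above the median on every array it held 8 of them, without nefma and top1b. After the mean of each experiment was taken away, 4 of the 10 remained among the top 10, namely nr3c1, capns1b, si:busm1-180g5.6 and ino80db. The centred r was highest for hoxc12b (0.99), whose r without centring was 0.72, and hoxb1a had a centred r of 0.70.

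Likeness of pattern did not mean likeness of size. The nr3c1 probe read 2.55, 1.96 and 2.48 in normal r4, 1.87, 1.83 and 1.8 in Hoxb1a-deficient r4 and 1.76, 1.84 and 1.59 in r2. Its groups did not overlap between normal r4 and the rest, with log2 fold changes of -0.33 and -0.42 against -0.99 and -1.29 for prickle1b. This separation held for 0.327% of all probes, and nr3c1 was picked for its likeness to prickle1b, which is separated in the same way. The nefma probe read 2.19, 1.49 and 2.32, then 1.41, 0.979 and 1.45, then 1.05, 0.866 and 0.806. Its log2 fold changes were -0.64 in Hoxb1a-deficient r4 and -1.12 in r2. The raraa probe read 7.93, 4.78 and 6.1, then 4.89, 4.25 and 3.93, then 2.25, 2.63 and 2.13, with the r2 decrease the larger one (-1.40, adjusted p = 0.00359 with the block). None of the 10 passed limma's test between Hoxb1a-deficient and normal r4, where 0% of all probes did, or 0.0123% with the block.

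**Figure D5:**
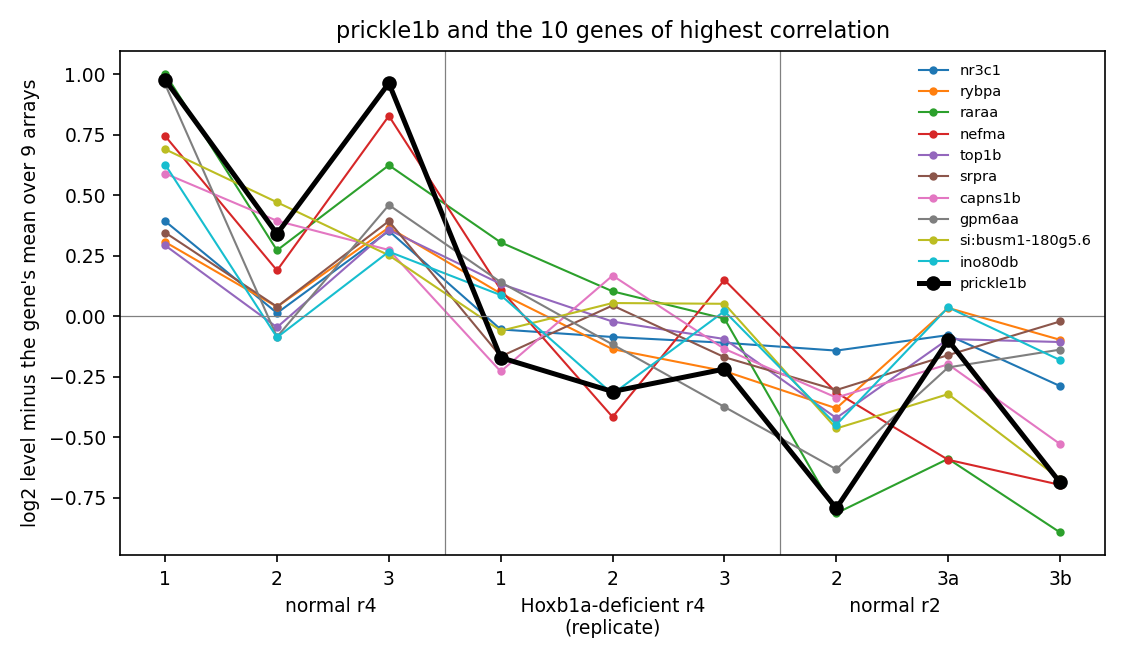
Log2 level minus the mean of the gene over 9 arrays (vertical axis) for prickle1b (black) and the 10 genes of highest Pearson correlation with it, by group and replicate. Lines join the arrays of a gene to ease reading and imply no order. All curves are highest among normal r4 arrays, and prickle1b and raraa span the widest range.

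Genes beside prickle1b in the genome were looked for by gene order in a RefSeq table of a later zebrafish assembly, used here for names and order only. Of the 6 entries on each side 1 had a probe, pphln1, which lies 3 entries away. It read 34.1, 36 and 31.5 in normal r4, 35.5, 34.8 and 39.8 in Hoxb1a-deficient r4 and 31.9, 42.3 and 44.4 in r2. Its log2 fold changes were 0.12 ± 0.21 and 0.21 ± 0.21 (SE, n = 3 per group), neither past limma's test.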

How the data were processed

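The deposited table holds 1 value per probe and array for 16399 rows. It was taken as a ratio, spot intensity over a constant of the array, since the values the authors deposited are linear, positive and have a median of about 1 on every array. The sources used here name no scanner, background treatment or normalization. Per the labels' protocols RNA was amplified and labelled with biotin. The 172 control spots of 1 actb2 accession were left out.

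Log2 values without a pseudocount were fitted with limma 3.58.1 in R 4.3.3 (group means over 9 arrays, eBayes, two-sided, Benjamini-Hochberg over 16227 probes). The fit was tested on simulated data. Groups came from sample titles. The design text ties replicate numbers to experiments. The 3 pairs of normal and deficient arrays with a shared number deviated together from their group means (correlations 0.892, 0.730 and 0.683). Unmatched pairs of experiments 2 and 3 did so too, less strongly (0.504 and 0.352), and unmatched pairs with experiment 1 had negative correlations (-0.781 to -0.678). Deviations from a group mean cancel within the group, so positive matched pairs push unmatched ones toward negative values. The negative correlations thus add no support for the pairing. Given the design text and the matched pairs, results with experiment as the replicate block stand beside the main ones. The r2 samples 3a and 3b share an experiment, and p-values cover only the variation among these 9 samples, which may be partly technical. The number of arrays limits the precision.

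One probe stood for a gene, the brightest. Members, lists and the rule for named genes (measured planar polarity genes, list members past a test, the 10 most correlated genes, probes at or above the ranks of prickle1b) were chosen with earlier results of these data known. Genes named as examples within lists beyond that rule, and pphln1, were chosen after their values were seen.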

Additional observations from a re-analysis of the deposited data

How the results depend on the processing

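The prickle1b difference kept its sign in all 33 other settings of each comparison. Between Hoxb1a-deficient and normal r4 it passed in 0, with log2 fold changes from -1.20 to -0.45. The smallest size came from log2(value + 16), which shrinks all differences. Between Hoxb1a-deficient r4 and r2 it passed in 0 (0.09 to 0.51). Between r2 and r4 it passed in 11: with the replicate block (-1.28), with the block and quantile normalization (-1.37), with the block and 3a and 3b averaged (-1.29), and with the experiment as a random block (-1.29). The others were leave-one-out fits. Over the 33 settings limma's adjusted p for r2 against r4 ran from 0.00142, with the experiment as a random block, to 0.489, with the upper quartile of each array set equal. Without the block, leaving out 1 array gave -1.50 to -1.16, past the test only without normal r4 replicate 2 (adjusted p = 0.0461), and with the block -1.43 to -1.14, past it in 6 of 9 (-1.42 without normal r4 replicate 2, -1.27 without r2 replicate 2 or Hoxb1a-deficient r4 replicate 2, -1.31 without Hoxb1a-deficient r4 replicate 3, -1.43 without 3a and -1.14 without 3b). The rank for being lower in both was 4 by differences within experiments, 5 with log2(value + 16) and 7 to 28 without 1 array. With experiment means taken away 4 of the 10 most correlated genes stayed. Of the 37 planar polarity and migration genes, those called between r2 and r4 numbered 3 with the replicate block and 0 with quantile normalization, against 1. The cause of these changes was not tested. The blocked fits without 1 array, the averaged blocked fit, 12 of the ranks and the other brightness filters for likeness were chosen after seeing the data.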
